A study of Mus musculus with 10 samples.

Results

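The genes described here encode the collagens, the laminin chains and the glycoproteins and proteoglycans that assemble with them into the extracellular matrix of the mouse embryo. They were picked by gene symbol, with no threshold on any measured value: 42 genes of collagen chains, 11 genes of laminin chains, and *Nid1*, *Nid2*, *Hspg2*, *Agrn*, *Sparc* and *Fn1*, in all 59 of the 20974 genes in the table. Their RNA was measured by RNA-sequencing in 10 single embryos at embryonic day E7.5, when gastrulation is under way. The groups were 5 *Rreb1*+/+ embryos (wild-type, replicates 2 to 6) and 5 *Rreb1*-/- embryos (mutant, replicates 2 to 6), all of strain CD1 by their labels and all obtained by crossing *Rreb1*+/- parents. The mutant allele was made with CRISPR-Cas9 and lacks most of the coding sequence of exon 6 of *Rreb1*, the gene of a zinc finger transcription factor. Mouse lines with a larger and with a smaller deletion were kept on a mixed background outbred to CD1, and the labels do not say which line each embryo came from. From every embryo the parietal endoderm had been taken off for genotyping, and RNA was prepared from what remained.

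A basement membrane is a thin sheet of matrix under an epithelium. Laminin trimers of an alpha, a beta and a gamma chain bind to cell receptors and polymerize into a first network, and collagen IV forms a cross-linked network beside it. Nidogens and the heparan sulfate proteoglycans perlecan and agrin bridge the networks. At gastrulation, cells leave the epiblast where its basement membrane is broken down at the primitive streak, and the parietal endoderm lays down the thick Reichert's membrane around the conceptus. Fibrillar collagens belong instead to the interstitial matrix made by mesenchyme.

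Depth was similar in all libraries, between 31467767 and 35786876 reads in genes. Values are normalized counts, reads divided by a size factor for each library. *Rreb1* itself had 2365 to 2924 normalized counts in the wild-type embryos and 3988 to 5715 in the mutants. Its RNA was therefore higher in every mutant (log2 fold change 0.91 ± 0.10, SE, limma, adjusted p = 0.000482). A count over the whole gene does not measure the deleted exon and so does not check the genotype labels. Sex was unequal between the groups: 4 Y-linked genes summed to at most 3.8 in the wild-type embryos and to 2.1 in mutant replicate 2, but to between 5849 and 9172 in mutant replicates 3 to 6. Genotype and sex can be told apart only through mutant replicate 2. The samples are whole embryos, so fewer cells of a type and less RNA per cell cannot be told apart. Epiblast markers such as *Pou5f1*, visceral endoderm markers such as *Afp* and mesoderm markers such as *Hand1* were present in all embryos.

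Most of the abundant genes of the set were those of the basement membrane, beside the glycoprotein genes *Sparc* and *Fn1*. Set against length, as normalized count per kb of exon, the 13 highest genes of the 59 were the same 13 in both genotypes: *Sparc*, *Fn1*, *Col4a1*, *Agrn*, *Nid2*, *Col4a2*, *Lamc1*, *Lamb1*, *Col18a1*, *Hspg2*, *Lama5*, *Lama1* and *Nid1*. They are called the core genes here. *Sparc*, a collagen-binding matricellular protein, stood at 3495 ± 285 per kb (SD, n = 5 wild-type embryos) and *Fn1*, fibronectin, at 3429 ± 482 per kb, a difference within the spread. *Col4a1* followed at 2743 ± 378 and *Agrn*, agrin, at 1570 ± 165 per kb. At the lower end of the core genes *Hspg2*, perlecan, had 493 ± 52.0, *Lama5* 491 ± 65.4 and *Lama1* 485 ± 139 per kb, which did not differ beyond their spread. *Nid1* was lowest of the 13 at 367 ± 105 per kb. The next gene, *Lamb2*, had 177 ± 25.7 per kb, and the most abundant fibrillar collagen, *Col5a1*, 132 ± 37.1 per kb.

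**Figure D1:**
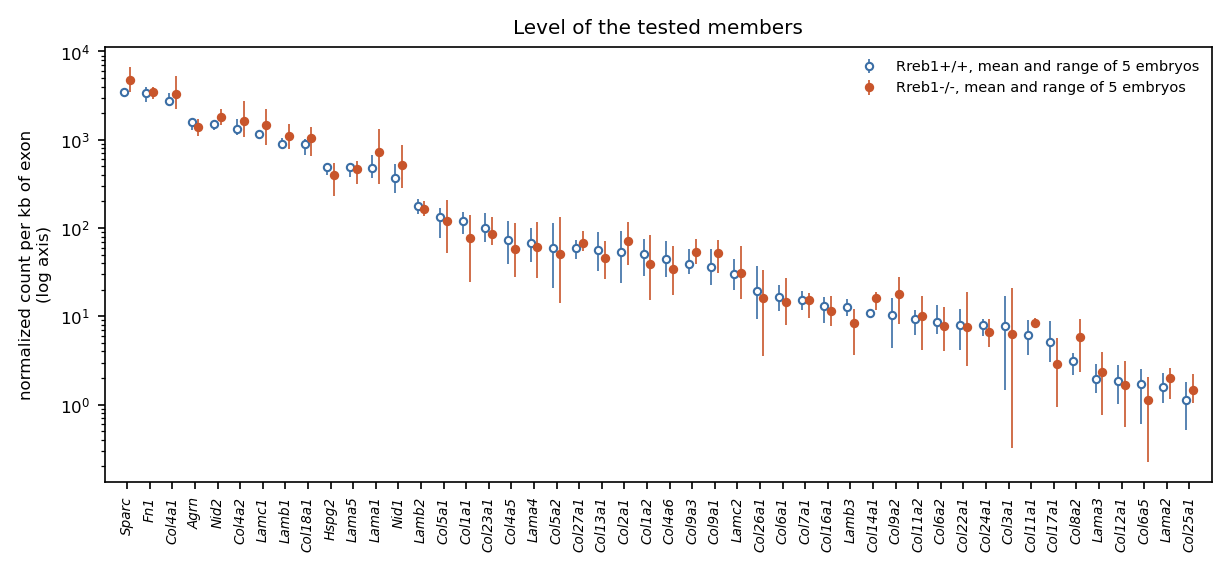
Normalized count per kb of exon (log axis) of the 48 members with enough reads to be tested, ordered by their wild-type level. Points are means of 5 embryos per genotype and bars reach from the lowest to the highest embryo. The 13 core genes stand at the left, down to *Nid1* at 367 per kb in the wild-type embryos.

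The core genes held between 91.4% and 96.8% of the summed normalized counts of all 59 members in each embryo. At the other end 11 genes had a mean under 15 in both genotypes and were not tested, among them the collagen IV chains *Col4a3* (1.92 in wild-type and 2.35 in mutant embryos) and *Col4a4* (4.03 and 3.54), which form the collagen IV of the mature kidney filter. No value of these 11 genes was above 20.1 in any embryo. The others were *Col5a3*, *Col6a3*, *Col6a4*, *Col6a6*, *Col10a1*, *Col15a1*, *Col19a1*, *Col20a1* and *Lamc3*.

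The first question was whether the loss of *Rreb1* changed the RNA of these matrix genes. In the comparison of the 5 mutants with the 5 wild-type embryos, none of the 48 tested members was higher and none was lower in the mutants at an adjusted p under 0.05 (limma). The background over the 15603 genes tested was 3.11% for higher and 1.15% for lower genes. Before adjustment 5 members had a p under 0.05, beside 18.0% of all genes. They were *Col14a1*, *Col8a2*, *Col9a3* and *Nid2* on the higher side and *Lamb3* on the lower. Fits of the recovered whole reads called 0 members with edgeR and 1 with DESeq2, *Col14a1*, where 7.77% of all genes were called.

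Log2 fold changes (log2 of normalized count + 1, mutant minus wild-type) ran from -1.15 to 0.77. Their median was -0.11, against -0.016 over all genes, with 22 members above 0 and 26 below. No member had mutant and wild-type values that did not overlap, a separation found in 6.70% of all genes.

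**Figure D2:**
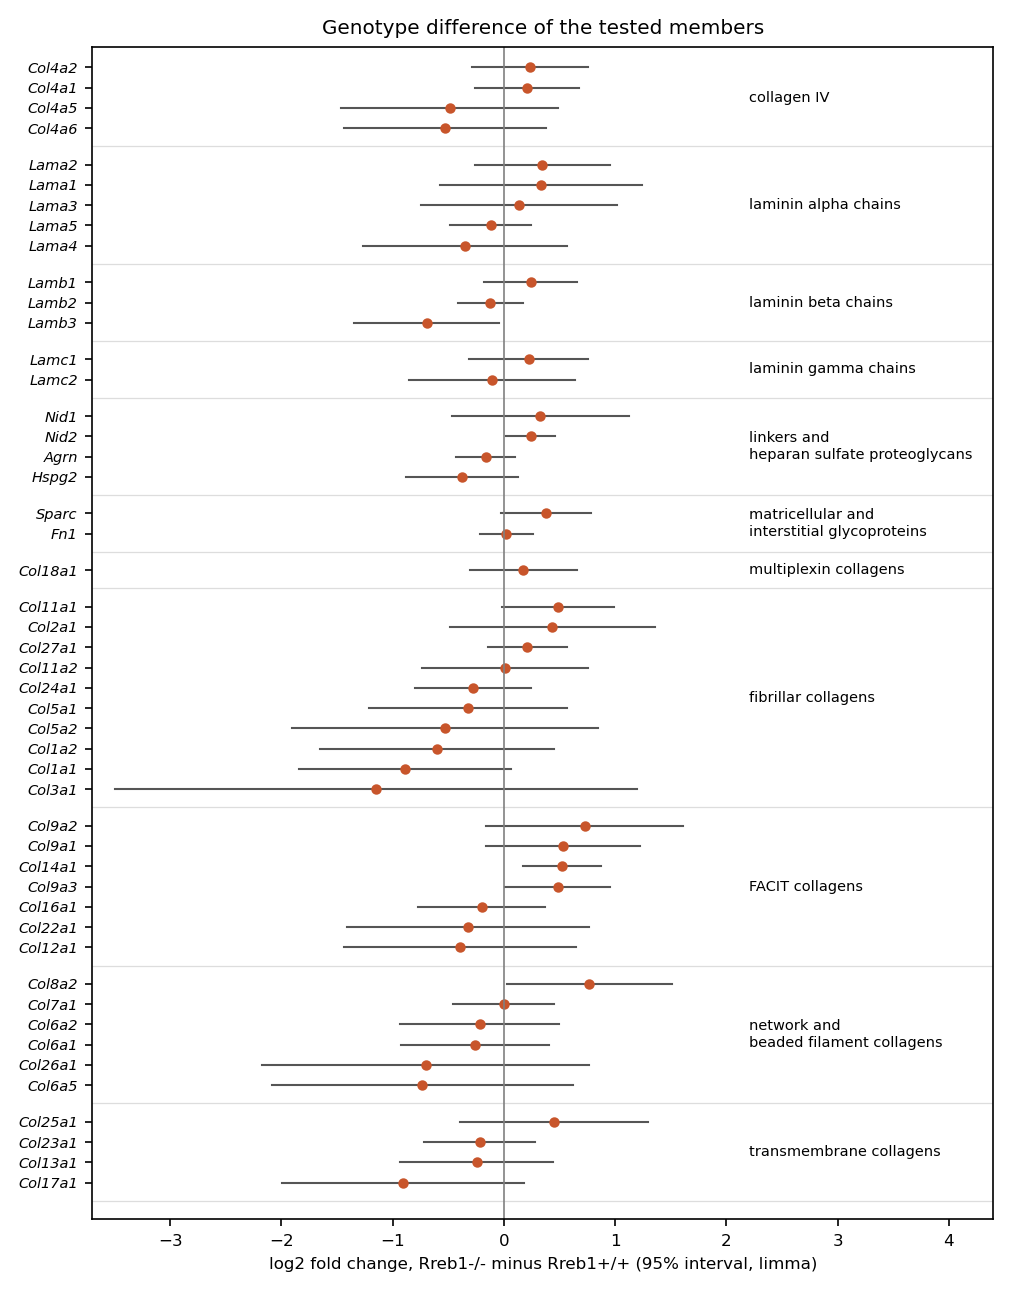
Log2 fold change of each tested member, mutant minus wild-type, with its 95% interval from limma, grouped by the kind of protein. The 48 points lie between -1.15 (*Col3a1*) and 0.77 (*Col8a2*), and the intervals of 43 members include 0.

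*Col14a1*, a collagen that attaches to the surface of other fibrils, had the lowest adjusted p. Its wild-type values in replicates 2 to 6 were 74.8, 82.3, 83.1, 75.9 and 69.7, and its mutant values 114, 133, 133, 100.4 and 82.4. Of the mutants, 4 lay above every wild-type embryo and replicate 6 lay among them. The log2 fold change was 0.52 (95% interval 0.17 to 0.87, limma, adjusted p = 0.105). It passed the threshold without mutant replicate 6 (log2 fold change 0.63, adjusted p = 0.0396) and with DESeq2 (0.55, adjusted p = 0.0450). The fit with the replicate number as a block called 1 member, *Col2a1*, the fibrillar collagen of cartilage and notochord sheath (0.44, adjusted p = 0.0482), where 6.87% of all genes were called.

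Among the fibril-associated collagens, the collagen IX chains, which coat collagen II fibrils, had positive fold changes. *Col9a1* was at 0.53 (95% interval -0.16 to 1.22), *Col9a2* at 0.73 (-0.16 to 1.61) and *Col9a3* at 0.48 (0.009 to 0.96). None of the 3 passed the adjusted threshold. With Y-linked reads as a covariate the estimates were 0.022 ± 0.56, 0.038 ± 0.71 and 0.000 ± 0.36 (SE). In that fit only mutant replicate 2 sets genotype apart from sex, so it cannot show whether sex accounts for the differences. *Col11a1*, a minor chain of cartilage fibrils, was at 0.49 (-0.014 to 0.99). It had 46.8 to 116 normalized counts in the wild-type and 97.7 to 124 in the mutant embryos, so the mutants fell inside or just above the upper part of the wild-type range.

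The largest estimate upward was *Col8a2*, a network-forming collagen, with 9.6 to 17.1 in the wild-type embryos and 22.3, 10.4, 29.7, 26.9 and 41.7 in mutant replicates 2 to 6. Its log2 fold change was 0.77 (0.025 to 1.51, limma, adjusted p = 0.263), at counts near the lower limit for testing.

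On the lower side the estimates came with wide intervals. *Col3a1* had the lowest estimate, -1.15 (-3.50 to 1.20), followed by *Col17a1*, a transmembrane collagen of hemidesmosomes, at -0.91 (-1.998 to 0.18), *Col1a1* at -0.89 (-1.84 to 0.067), *Col6a5* at -0.73 (-2.08 to 0.62) and *Col26a1* at -0.70 (-2.17 to 0.77). *Lamb3*, the beta chain of epithelial anchoring laminin, had 66.2, 97.4, 104, 88.3 and 69.7 in the wild-type and 44.5, 66.5, 24.4, 61.3 and 80.3 in the mutant embryos (log2 fold change -0.69, interval -1.35 to -0.043, limma, adjusted p = 0.248).

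Counted by kind of protein, positive and negative estimates were mixed. The 10 tested fibrillar collagens had a median log2 fold change of -0.30, with 4 above 0 and 6 below. The 7 tested fibril-associated collagens had a median of 0.48, with 4 above and 3 below. The 10 tested laminin chains had a median of 0.015, with 5 on each side, and the 13 core genes a median of 0.22, with 10 above and 3 below. None of these groups held a called gene. Of 5 markers of maternal decidua 3 were tested and 0 were called, with 1 estimate above 0 and 2 below. *Pgr*, the progesterone receptor, had means of 188 in the wild-type and 281 in the mutant embryos. Its adjusted p was 0.0618 (limma) and 0.0206 in the blocked fit. *Des* had means of 196 and 198 and *Lum* of 17.55 and 19.51, with log2 fold changes of -0.029 and -0.675. *Prl8a2* and *Dcn*, too low to be tested, had means of 7.29 and 3.14 and of 11.27 and 13.11. The 7 markers of visceral endoderm summed to 259194 to 297078 in the wild-type and, overlapping with them, to 192485 to 273390 in the mutant embryos, with 1 of 7 called lower, *Afp*. Their part in the values of the members was not tested.

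The core genes were nevertheless not alike from embryo to embryo. In 8 of them both mutant replicate 2 and mutant replicate 6 lay above all other embryos: *Col4a1*, *Col4a2*, *Lama1*, *Lamb1*, *Lamc1*, *Nid1*, *Nid2* and *Sparc*. These were the only ones among the 48 tested members with this order, which held for 4.36% of all genes tested. Mutant replicate 2 had a Y-linked sum of 2.1 and mutant replicate 6 had 7659. The pair of embryos was picked out after the values were seen, so the values are given as a description with no test.

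*Lama1*, the alpha chain of the main laminin of the early embryo, varied most among the 8. The wild-type embryos had 5664, 3908, 6563, 3768 and 3553 normalized counts in replicates 2 to 6, and the mutants had 12932, 3083, 3739, 3506 and 11860. Mutant replicates 2 and 6 were 2.76 and 2.53 times the wild-type mean, while the other mutants lay near or below the low end of the wild-type range. The log2 fold change over all embryos was 0.33 (-0.58 to 1.25, limma, adjusted p = 0.721).

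The partner chains followed the same order. *Lamb1* had 9418, 8145, 10268, 8466 and 7750 in the wild-type and 15144, 8642, 7703, 8302 and 14325 in the mutant embryos. *Lamc1*, the gamma chain of most embryonic laminins, had 9912, 8679.8, 9774, 10650 and 9673 in the wild-type and 17438, 7275, 8001, 9924 and 18595 in the mutant embryos. Both chains were thus between 1.63 and 1.91 times the wild-type mean in mutant replicates 2 and 6. Their genotype estimates were 0.24 (-0.18 to 0.66) for *Lamb1* and 0.22 (-0.32 to 0.76) for *Lamc1* on the log2 scale. *Lama5*, the other abundant alpha chain, did not follow: it had 4332 to 6154 in the wild-type embryos and 3552, 6595, 4288, 5693 and 6105 in the mutants, lowest of all 10 embryos in mutant replicate 2 (log2 fold change -0.12, interval -0.48 to 0.25). The level of *Lama1* per kb was between 0.69 and 1.54 times that of *Lama5* in the wild-type embryos and was 4.28 times it in mutant replicate 2, 2.28 times in mutant replicate 6 and 0.55 to 1.03 times in the other mutants.

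*Col4a1* and *Col4a2*, whose chains make the most common collagen IV, moved as a pair. *Col4a1* had 18242, 20230, 25356, 19237 and 19302 in the wild-type embryos and 30087, 20364, 16561, 17938 and 38927 in the mutants. *Col4a2* had 7497, 8696, 11516, 7782 and 8556 in the wild-type and 13059, 8643, 7024, 7790 and 18154 in the mutant embryos. The level of *Col4a1* per kb stayed between 1.90 and 2.19 times that of *Col4a2* in the 10 embryos, while *Col4a1* itself ranged from 16561 to 38927. The genotype estimates were 0.21 (-0.26 to 0.68) for *Col4a1* and 0.23 (-0.29 to 0.76) for *Col4a2* on the log2 scale, with adjusted p = 0.661 and 0.654 (limma). The genes lie head to head on chromosome 8 (GRCm38, GENCODE M21), *Col4a1* on the minus strand with its start at 11312826 and *Col4a2* on the plus strand with its start at 11312805, so their first exons share 22 bases. Whether reads were counted by strand is not given in the sources used here.

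*Sparc* had 14116, 13934, 14024, 12061 and 12053 in the wild-type embryos, a narrow range. In the mutants it had 25430, 13738, 13827, 13212 and 23244, so replicates 3 to 5 lay within the wild-type range and replicates 2 and 6 at 1.92 and 1.76 times the wild-type mean. Its log2 fold change was 0.38 (-0.027 to 0.78, limma, adjusted p = 0.314). *Nid1*, nidogen, had 3654, 1719, 2092, 2687 and 2589 in the wild-type and 5817, 1967, 1951, 2102 and 6066 in the mutant embryos (log2 fold change 0.33, interval -0.47 to 1.12). *Nid2* differed less between embryos, with 6728 to 8414 in the wild-type and 9458, 9306, 7595, 8875 and 11514 in the mutants. Its log2 fold change of 0.24 (0.015 to 0.46, limma, adjusted p = 0.246) was among the 5 at an unadjusted p under 0.05.

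The proteoglycan genes *Hspg2* and *Agrn* went another way. *Hspg2* had 5780.5, 7119.8, 7538, 7231 and 7624 in the wild-type embryos and 3286, 7750, 3793, 7002 and 6853 in the mutants. Mutant replicates 2 and 4 were below all other embryos, and the log2 fold change was -0.38 (-0.88 to 0.12, limma, adjusted p = 0.421). *Agrn* had 12072 to 15858 in the wild-type and 10270, 13761, 11222, 14521 and 15795 in the mutant embryos, again lowest in mutant replicates 2 and 4 (log2 fold change -0.17, interval -0.43 to 0.10). *Col18a1*, a basement membrane collagen that carries heparan sulfate, had 4764 to 7098 in the wild-type and 4599, 7725, 4921, 9634 and 9699.7 in the mutant embryos (log2 fold change 0.18, interval -0.30 to 0.65). *Fn1* was the steadiest of the core genes between genotypes, with 31685 to 46659 in the wild-type and 34171 to 46492 in the mutant embryos. Its interval ran from -0.22 to 0.26 on the log2 scale.

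**Figure D3:**
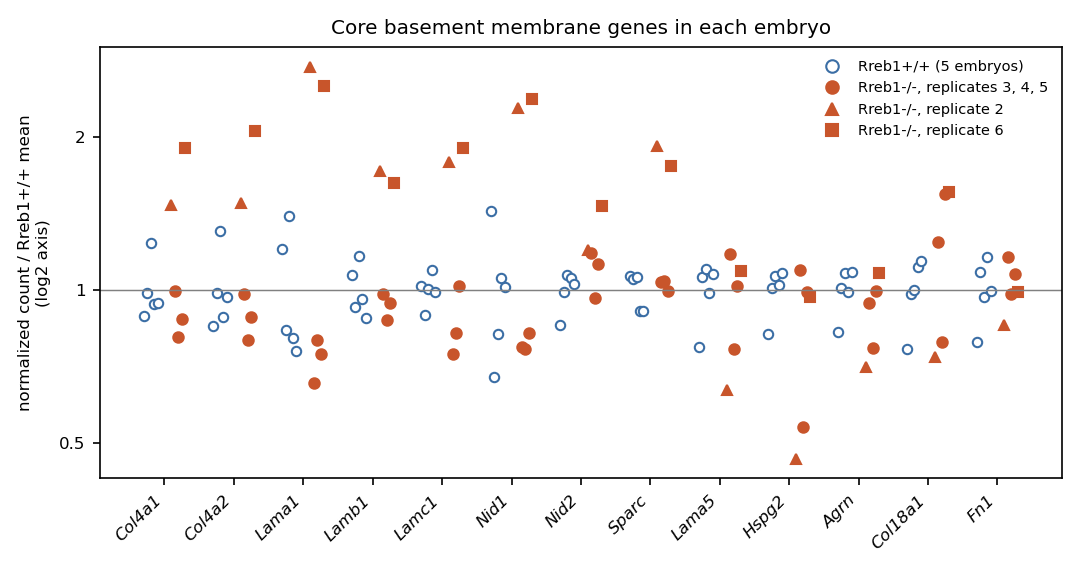
Normalized count of each core gene in each embryo, divided by the mean of the 5 wild-type embryos (log2 axis). Mutant replicates 2 (triangles) and 6 (squares) lie above all other embryos for the 8 genes at the left, up to 2.76 times the wild-type mean for *Lama1*, and not for *Lama5*, *Hspg2*, *Agrn*, *Col18a1* or *Fn1*.

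The order rests on those 2 embryos. With both left out, an alternative chosen after seeing the data, the log2 fold changes of *Col4a1*, *Col4a2*, *Lama1*, *Lamb1*, *Lamc1* and *Nid1* turned negative, at -0.16, -0.16, -0.41, -0.095, -0.22 and -0.30, and those of *Sparc* and *Nid2* came to 0.042 and 0.13. These genes had been picked because those 2 embryos were highest, so their estimates had to fall. The coefficient of variation was larger among the mutants than among the wild-type embryos in 12 of the 13 core genes and in 41 of the 48 tested members, against 67.5% of all genes. Both counts include the genes picked for those 2 high mutants.

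Of 5 markers of parietal endoderm, 2 had both mutant replicate 2 and mutant replicate 6 above all other embryos. The summed count of the 8 genes was 129366 in mutant replicate 2 and 142685 in mutant replicate 6, and between 66400 and 88006 in the other embryos. The 8 genes had been picked for this order, so their sum had to be highest in those 2 embryos. *Srgn*, a secreted proteoglycan of that tissue, had 1526 and 1298 in those 2 embryos and 162 to 823 in the others. *Pth1r*, the parathyroid hormone receptor, had 3052 and 2844, against 1552 to 2709.

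The rest of the list of 5 markers was less uniform. *Thbd* had 296 and 734, the latter the highest of all embryos, while wild-type replicate 5 had 472. *Plat*, the tissue plasminogen activator, was higher in all mutants (711 to 1655 against 294 to 551, log2 fold change 1.45, limma, adjusted p = 0.0049), and *Fst* had 1099 to 2947 with neither embryo at the top. The 5 markers summed to 8811 and 8528 in mutant replicates 2 and 6, to 3824 to 6243 in the wild-type embryos and to 4200 to 6537 in the other mutants; 2 of the 5 had both embryos above all others, and no marker was at 0 in any embryo. Markers of trophoblast giant cells, which adjoin the parietal endoderm, summed to 1560 in mutant replicate 6 and 53.0 in mutant replicate 2, and to 1303 in wild-type replicate 5, whose 8 genes were not high. The part of parietal endoderm RNA in the levels of these genes was not tested.

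**Figure D4:**
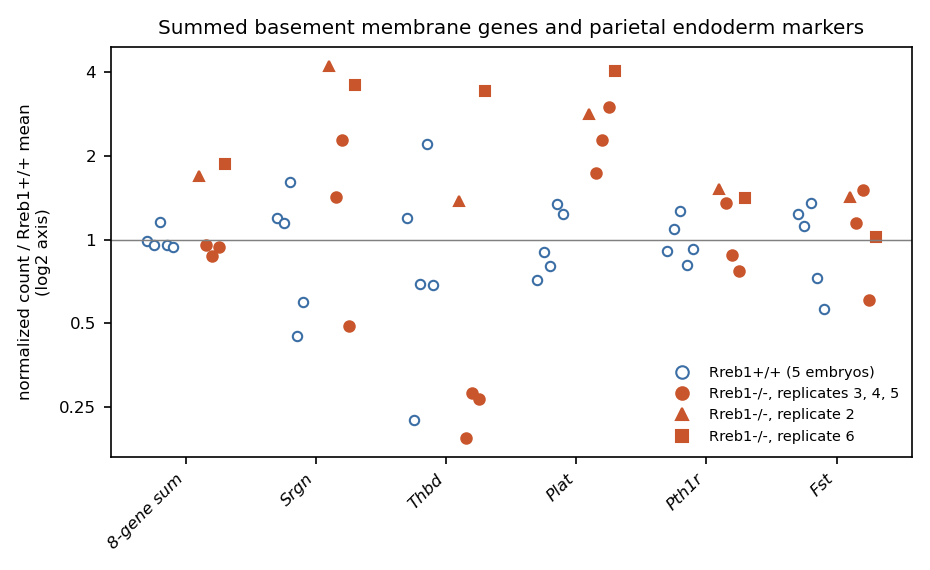
Sum of the 8 genes high in mutant replicates 2 and 6, and the 5 parietal endoderm markers, in each embryo, divided by the wild-type mean (log2 axis). Mutant replicates 2 (triangle) and 6 (square) lie above the other embryos for *Srgn* and *Pth1r*. They do so for the sum because its genes were picked for that order. All mutants lie above the wild-type embryos for *Plat*.

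Promoter sequence is shown for *Lamb1* and *Nid1*, which moved together in those embryos, and for *Hspg2*, which did not. The stretches begin 250 bases before the RefSeq start site (GRCm38.p6) and end before the first annotated untranslated base. Capitals mark GC boxes (GGGCGG, or CCGCCC on the other strand) and CCAAT boxes (CCAAT, or ATTGG on the other strand).

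Lamb1 chr12:31265043-31265233, + strand: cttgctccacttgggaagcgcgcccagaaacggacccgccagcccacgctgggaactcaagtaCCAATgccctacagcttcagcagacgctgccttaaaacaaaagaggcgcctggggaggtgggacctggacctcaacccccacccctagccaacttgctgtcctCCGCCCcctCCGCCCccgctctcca

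Nid1 chr13:13437352-13437550, + strand: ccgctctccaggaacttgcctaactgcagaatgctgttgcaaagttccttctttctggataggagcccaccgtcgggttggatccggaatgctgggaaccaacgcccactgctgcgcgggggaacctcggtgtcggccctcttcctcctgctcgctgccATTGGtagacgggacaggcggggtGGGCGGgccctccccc

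Hspg2 chr4:137468553-137468768, + strand: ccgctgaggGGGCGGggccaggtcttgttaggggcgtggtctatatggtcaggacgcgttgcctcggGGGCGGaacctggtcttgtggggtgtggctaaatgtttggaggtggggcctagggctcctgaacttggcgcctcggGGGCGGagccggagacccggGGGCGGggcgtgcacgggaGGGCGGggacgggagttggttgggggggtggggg

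The *Lamb1* stretch held 2 GC boxes and 1 CCAAT box in 191 bases, *Nid1* held 1 of each in 199 bases, and *Hspg2* held 5 GC boxes and no CCAAT box in 216 bases. Of all RefSeq promoter windows of 300 bases, 35.7% held a GC box and 37.4% a CCAAT box. Among 47 windows of the 42 members that were matched by symbol, 61.7% held a GC box and 31.9% a CCAAT box. A match of letters is a description and not a binding site.

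A different set of members followed the replicate number in both genotypes. In 17 of the 48 tested members, replicates 5 and 6 lay above replicates 2 to 4 among the wild-type embryos and again among the mutants, an order found in 8.15% of all genes tested. Of the 17, 15 were collagens, and they included 6 of the 10 tested fibrillar collagens. What the replicate numbers stand for is not given in the labels, and both the order and the genes described for it were picked out after the values were seen, so no test is attached.

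*Col3a1*, the fibrillar collagen of loose connective tissue, spanned the widest range. It had 14.4, 33.1, 33.4, 165 and 132 in the wild-type and 3.2, 6.2, 12.7, 205 and 85.5 in the mutant embryos. The lowest value of replicates 5 and 6 was above the highest of replicates 2 to 4 in each genotype. *Col1a2*, a chain of collagen I, had 355, 546, 435, 945 and 878 in the wild-type and 216, 274, 192, 1045 and 726 in the mutants. *Col5a1*, which starts collagen I fibrils, had 653, 1084, 1039, 1368 and 1449.8 in the wild-type and 444, 715, 491, 1705 and 1787 in the mutants.

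Its partner chain *Col5a2* ran from 199.6 to 1102 in the wild-type and from 136 to 1296 in the mutant embryos. *Col1a1* had 559, 926, 611, 834 and 990 in the wild-type and 224, 512, 160, 925 and 704 in the mutants, so it kept the order in the mutants and not in the wild-type embryos. Collagens I, III and V (*Col1a1*, *Col1a2*, *Col3a1*, *Col5a1* and *Col5a2*) together summed to between 1075 and 3208 in replicates 2 to 4 and to between 3876 and 5176 in replicates 5 and 6.

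Some basement membrane genes of lower abundance had the same order. *Col4a5* and *Col4a6*, a second pair of collagen IV chains, had 266 to 390.5 and 221 to 271 in wild-type replicates 2 to 4, and 645 to 798 and 489 to 564 in wild-type replicates 5 and 6. In the mutants *Col4a5* had 193, 221, 186, 768 and 580, and *Col4a6* had 139, 161, 144, 504 and 409. The pair lies head to head on the X chromosome with 1308 bases between the annotated starts (GENCODE M21), and the level of *Col4a5* per kb was 1.43 to 1.82 times that of *Col4a6* in the 10 embryos. *Lama4*, the alpha chain of vascular basement membranes, had 716, 684, 501, 1221 and 918 in the wild-type and 412, 378, 328, 1426 and 1118 in the mutants. Among the core genes, *Col18a1* alone had this order.

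Marker levels differed between the same embryos. The endothelial markers summed to 2672 to 4073 in wild-type replicates 2 to 4 and to 7376 and 8849 in replicates 5 and 6. In the mutants they summed to 3004 to 3786 and to 6246 and 6552. *Kdr*, the most abundant of them, did not keep the order in the mutants, with 2835 in replicate 3 and 2707 in replicate 6. The other endothelial markers kept it in both genotypes. The summed epiblast markers went the other way, with 33907 to 49088 in replicates 2 to 4 of both genotypes and 15095 to 20081 in replicates 5 and 6. Among them *Utf1* alone did not, with 596 in wild-type replicate 2 and 656 in wild-type replicate 6. *Dnmt3b* and *Pou5f1* made up most of the sum. *Postn*, a matrix protein of mesenchyme, had 5.2 to 52.2 in replicates 2 to 4 and 141 to 342 in replicates 5 and 6. Of the mesoderm markers it was listed with, *Hand2* was also higher in replicates 5 and 6 in both genotypes. *Hand1*, *Foxf1*, *Bmp4* and *Tbx20* did not keep this order in the wild-type embryos. The part of cell composition or stage in the collagen levels was not tested.

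**Figure D5:**
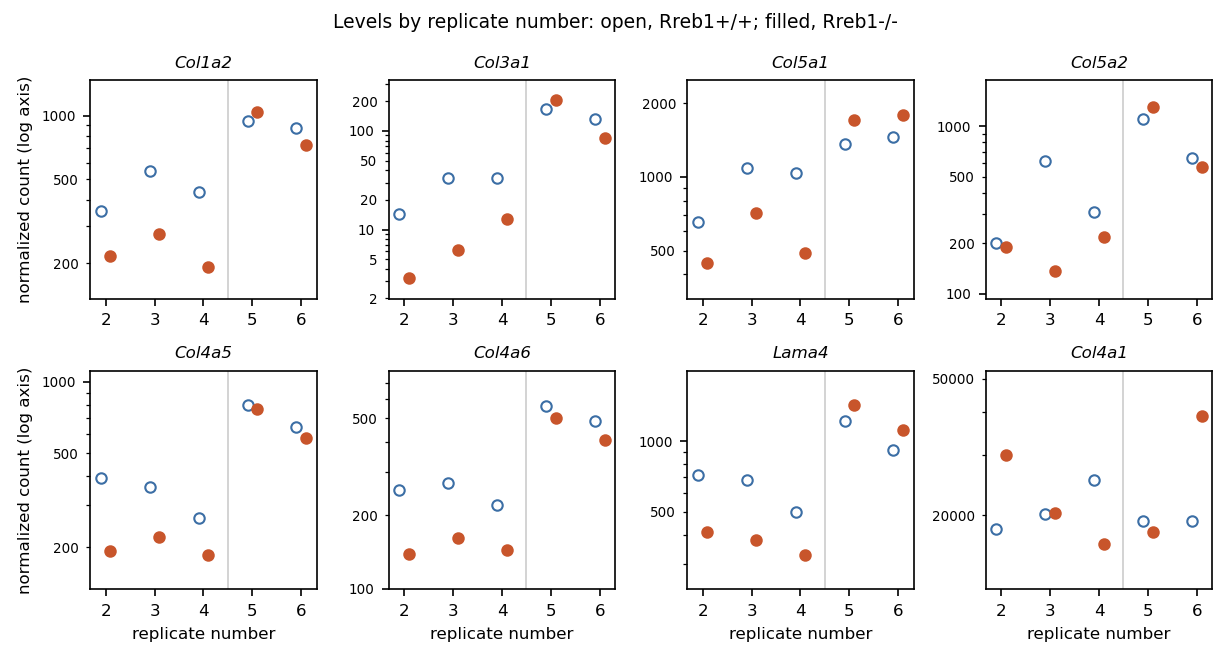
Normalized count (log axis) against replicate number for 7 members that were higher in replicates 5 and 6 in both genotypes, and for *Col4a1*, which was not. In replicates 2 to 4 the mutants (filled) lie below the wild-type embryos (open) for *Col1a2*, *Col3a1*, *Col4a5*, *Col4a6* and *Lama4*.

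Compared within replicates 2 to 4 alone, 3 members were lower in the mutants (limma), where 3.61% of all genes were called in either direction. They were *Col1a2* (log2 fold change -0.96, adjusted p = 0.0432), *Col4a6* (-0.74, adjusted p = 0.0422) and *Col26a1* (-1.25, adjusted p = 0.0393). *Lama4* and *Col4a5* had -0.75 (adjusted p = 0.0545) and -0.74 (adjusted p = 0.0697). *Col4a5* and *Col4a6* are X-linked, and the part of sex in their values was not tested. Within replicates 5 and 6 alone no member was called, and the same genes had -0.065, -0.21 and 0.11 for *Col1a2*, *Col4a6* and *Col26a1*. The difference between the 2 sets was itself tested as an interaction of genotype with set, and no member passed (lowest adjusted p = 0.432, *Col26a1*), so the genotype difference is not shown to depend on the set. Over all members the median log2 fold change was -0.16 in replicates 2 to 4 and 0.25 in replicates 5 and 6.

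Collagen chains are hydroxylated, glycosylated and folded before secretion and trimmed and cross-linked after it. Of 35 genes of this machinery 34 were tested, 1 was higher in the mutants and none was lower (limma), with a median log2 fold change of 0.068. That count is near the background of 3.11% higher genes. The gene was *Pcolce2*, an enhancer of procollagen C-proteinase. It had 196, 223, 247, 179.6 and 210.1 in the wild-type and 279, 303, 323, 269.5 and 285 in the mutant embryos, so that every mutant lay above every wild-type embryo. Genotypes did not overlap in 6.70% of all genes tested. The log2 fold change of *Pcolce2* was 0.47 (0.23 to 0.71, limma, adjusted p = 0.0365). Its exact two-sided permutation p was 0.00794, the smallest that 5 against 5 embryos allow, which any gene without overlap gets.

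*Plod2*, a lysyl hydroxylase of collagen telopeptides, also did not overlap between genotypes, with 2341 to 2829 in the wild-type and 5922, 2984, 3875, 3498 and 5703 in the mutant embryos. Its adjusted p of 0.0508 missed the threshold in limma (log2 fold change 0.69) and passed it with edgeR (0.0385) and DESeq2 (0.0011). It was one of 6 of the 34 genes, with *P4ha1*, *Colgalt1*, *Fkbp14*, *Sec24d* and *Loxl2*, in which mutant replicates 2 and 6 were above all other embryos. This order held for 4.36% of all genes tested. *Colgalt1* had it by a small margin, with 3789 and 3729 against at most 3656 in the others. *Serpinh1*, the collagen chaperone HSP47, had 13255 to 18731 in the wild-type and 19986, 19580, 12831, 20301 and 34074 in the mutants (log2 fold change 0.39, limma, adjusted p = 0.362).

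Cells bind these matrix proteins through integrins, dystroglycan, syndecans and discoidin domain receptors. Of 23 such genes 22 were tested, none was higher and 1 was lower in the mutants (limma), with a median log2 fold change of -0.046. The background was 3.11% higher and 1.15% lower genes, so a count of 1 in 22 says little about the list. The lower gene was *Dag1*, dystroglycan, a receptor for laminin, perlecan and agrin. It had 7001, 6869.8, 6406, 8365 and 7263 in the wild-type and 5242, 5430.4, 5023, 6783 and 5219.6 in the mutant embryos. Mutant replicate 5 lay inside the wild-type range and the other mutants below it. The log2 fold change was -0.38 (-0.58 to -0.17, adjusted p = 0.0446, exact two-sided permutation p = 0.0159).

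*Itga6*, an integrin chain for laminin, was at 0.047 (-0.17 to 0.26) and *Itgb1*, the common beta chain, at -0.059 (-0.26 to 0.14) on the log2 scale. *Itga5*, the fibronectin receptor chain, was at -0.030 (-0.16 to 0.10). In the fit with the replicate block a second receptor, *Itga8*, the integrin chain for nephronectin, was also called (log2 fold change 0.64, adjusted p = 0.0279, where 6.87% of all genes were called), and it had an adjusted p of 0.252 without the block. The fold changes of *Pcolce2* and *Dag1* moved less than their calls did. Leaving out one embryo at a time, the log2 fold change of *Pcolce2* was 0.41 to 0.53 and that of *Dag1* -0.45 to -0.32. *Pcolce2* stayed under the threshold only without wild-type replicate 4, and *Dag1* only without wild-type replicate 4 or mutant replicate 5. With Y-linked reads as a covariate the log2 fold changes were 0.40 (limma, adjusted p = 0.311) and -0.45 (adjusted p = 0.208). *Pcolce2* was also not called with quantile scaling (0.43, adjusted p = 0.0731), and *Dag1* not with edgeR (adjusted p = 0.0507), with no filter on low values (0.0512) or with quantile scaling (0.0546).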

How the data were processed

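RNA from 5 *Rreb1*+/+ and 5 *Rreb1*-/- embryos was sequenced by the authors as stranded polyA libraries, aligned with STAR, counted with HTSeq and normalized with DESeq. Versions, genome build and gene models: not given in the sources used here. The deposited signal of a gene is thus its reads over a library's size factor. Dividing each column by its smallest step recovered whole reads (100% within 0.1 read), used for depth, edgeR 4.0.16 and DESeq2 1.42.0. Counting error is small for the abundant members but not for those with few reads, such as *Col8a2*, *Col6a5* and, in some embryos, *Col3a1*.

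Genes whose mean reached 15 in either genotype were tested on log2(normalized count + 1) with limma 3.58.1 in R 4.3.3 (variance trend, Benjamini-Hochberg adjustment over all 15603 genes), calling an adjusted p under 0.05. All 59 members were matched by identifier to GENCODE M21. The members, lists and markers were chosen with earlier results of these data known. Named genes were the 13 core genes, called members, the 5 largest changes per direction and up to 4 called genes per list; others were chosen after their values were seen. Same-numbered embryos deviated together (correlations 0.25 to 0.46 in 5 pairs), so the replicate block was also fitted, although 3 of 10 embryos correlated best with their own number. Alternatives covered pseudocounts of 0.5 and 10, a mean of 50, no filter, TMM and quantile scaling, a Y-linked covariate, replicate sets and each embryo left out. The limma fit was tested on simulated counts with independent noise and set fold changes. They held no replicate sets and no sex difference, so that test does not cover these.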

Additional observations from a re-analysis of the deposited data

Results flagged for a closer look

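In 50 groups of 5 embryos, the values of the 25 named genes in each genotype, 3 held an embryo whose gap to the nearest other exceeded the 95% critical value of Dixon's test (0.71), about the 1 in 20 that chance gives. Wild-type replicate 4 was high in *Col4a1* (25356). Wild-type replicate 2 was low in *Hspg2* (5780.5). Mutant replicate 5 was high in *Dag1* (6782.9), which is the mutant that overlapped with the wild-type embryos.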

How the results depend on the processing

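Of the 25 named genes 2 were called, *Pcolce2* and *Dag1*, and 28 of their 46 values under the alternatives lost the call while keeping the direction. Of 525 values of the other named genes, which were not called, 504 kept their direction and stayed uncalled, 3 passed the threshold and 18 turned. The number of members called higher was 1 with DESeq2 and 1 with the replicate block (0 otherwise), and ranged from 0 to 1 when single embryos were left out. In replicates 2 to 4 alone 3 members were called lower, and 1 of them was also past a 2-fold change. Among the members and the processing and receptor lists the replicate block changed the calls of *Col2a1* and *Itga8*, and among the markers those of *Pgr* and *Cdh5*; over all genes it raised the calls from 486 to 716 higher and from 179 to 356 lower. The median log2 fold change of the members was -0.46 with Y-linked reads as a covariate and 0.25 in replicates 5 and 6 alone. In the covariate fit only mutant replicate 2 sets genotype apart from sex, so its estimates rest on that embryo.

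Of the collagen processing genes, 2 were called with a pseudocount of 10, a mean of at least 50, edgeR, DESeq2 and TMM factors, and 0 with the Y-linked covariate, in replicates 2 to 4 alone and in replicates 5 and 6 alone; single embryos left out gave 0 to 1. With quantile scaling the 1 called gene was *Plod2* in place of *Pcolce2*. Of the receptor genes, 2 were called with the replicate block and in replicates 2 to 4 alone, and 0 with no filter, edgeR, quantile scaling, the Y-linked covariate, replicates 5 and 6 alone and mutant replicates 2 and 6 left out; single embryos left out gave 0 to 1.

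Signs turned for *Fn1* (-0.22) and *Col18a1* (-0.42) with the Y-linked covariate and for *Col18a1* (-0.016) in replicates 2 to 4 alone. In replicates 5 and 6 alone they turned for *Lama5* (0.030), *Fn1* (-0.059), *Col6a5* (0.52) and *Col26a1* (0.11), and *Agrn* came to 0.0. With mutant replicates 2 and 6 left out they turned for *Col4a1* (-0.16), *Col4a2* (-0.16), *Lama1* (-0.41), *Lamb1* (-0.095), *Lamc1* (-0.22) and *Nid1* (-0.30). The genes that turned there had been picked for high values in those embryos, so their estimates had to fall. Leaving out single embryos moved *Lama5* between -0.21 and 0.012 and *Fn1* between -0.060 and 0.082. The causes were not tested. Among the core genes, the intervals of the genotype difference do not exclude a 2-fold increase of *Lama1* or *Nid1*. Many intervals of other members also reach past a 2-fold change. Examples are *Col3a1* in either direction, *Col1a1* downward (to -1.84) and *Col9a2* upward (to 1.61).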
